A study of Homo sapiens with 12 samples.

Results

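Nobiletin was compared directly with sorafenib in HepG2 cells, a long-established line from a human liver tumour, from the RNA sequencing counts of 6 of the 12 libraries of a study of both compounds. The 6 libraries were chosen by their labels alone: 3 came from cells given 5 µM nobiletin (NOB) and 3 from cells given 2 µM sorafenib (SOR), and all genes were included. The other 6 libraries, 3 from vehicle-treated cells (Control) and 3 from cells given both compounds (SOR+NOB), did not enter the main fit. They are used to place the levels and in 1 alternative fit with all 12 libraries. Each compound was present at its own dose, so every difference is between 5 µM of one and 2 µM of the other. The labels used here do not state how long cells were exposed. The labels do not say that the 3 libraries of a group came from separate cultures, so the p-values measure only the spread between these libraries.

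Nobiletin is a polymethoxylated flavone of citrus peel. Sorafenib, a drug for liver cancer, inhibits several kinases, among them the RAF kinases, which pass growth signals on to the kinase ERK, and the receptors of vascular endothelial growth factor. HepG2 cells keep much of the gene programme of hepatocytes: they secrete plasma proteins through the endoplasmic reticulum (ER), make lipoproteins, and carry out parts of bile acid, drug and amino acid metabolism.

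Total counts were between 20196645 and 23647659 in NOB and between 19202769 and 25669823 in SOR. All 9 markers of hepatocytes and HepG2 cells were detected in both groups, while COL1A2 and COL3A1 (fibroblasts), EMCN, KDR and TEK (endothelium), CD3E and MS4A1 (lymphocytes) and KRT7 and MUC2 (other epithelia) had no count in any of the 6 libraries. The summed level of the 8 leukocyte markers was 695 to 716 CPM (counts scaled to a common library size by TMM) in NOB and 328 to 338 CPM in SOR, and nearly all of it was the lysozyme gene LYZ, at 705 ± 9.93 and 321 ± 5.51 CPM; its part in the results was not tested. Other members of these marker lists had counts. The cholangiocyte and intestinal markers summed to 653 to 670 CPM in NOB and 866 to 883 CPM in SOR. Fibroblast and stellate cell markers summed to 23.2 to 23.6 and 24.5 to 27.9 CPM, and endothelial markers to 11.8 to 13.3 and 12.7 to 16.8 CPM. On the first principal component, with 70.0% of the variance, the groups separated. On the second, with 9.29%, SOR replicate 2 (31.4) stood apart from SOR replicates 1 and 3 (-22.7 and -10.0), and the NOB libraries lay between -0.673 and 1.93. Long noncoding RNA took 1.24% ± 0.0122 of the counts in NOB and 1.0% ± 0.0211 in SOR (SD, n = 3), and the 10 most abundant genes took 11% ± 0.029 and 15.4% ± 0.202. As in any bulk RNA measurement, fewer cells of a type and less RNA per cell cannot be told apart.

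Levels below are CPM, given as mean ± SD with n = 3. Log2 fold changes are NOB minus SOR, so a positive value means higher in NOB, and are given ± SE from edgeR's quasi-likelihood fit of the 6 libraries. A gene is said to be called, or to be higher in a group, where its Benjamini-Hochberg adjusted p over all genes tested was under 0.05. Positions are on GRCh38.

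Of 15818 genes tested, 8308 were called (52.5%), of which 4008 were higher in NOB (25.3% of those tested) and 4300 higher in SOR (27.2%). Differences of at least 2-fold were called in 1814 genes, 800 higher in NOB and 1014 higher in SOR. Differences of at least 4-fold were called in 167 and 276. The median absolute log2 fold change over all genes tested was 0.32, and the median log2 fold change was 0.01. With scaling by library totals in place of TMM, 6321 genes were called higher in NOB and 2712 higher in SOR, so 70.0% of calls were higher in NOB in place of 48.2%, and the median of all genes lay at 0.19. Among the 12385 protein-coding genes tested 59.4% were called, 3502 higher in NOB and 3858 higher in SOR. With 52.5% of all genes called, a list in which about 1 gene in 2 is called is no different from the background. The lists below are read against the shares of 25.3% and 27.2%. Their tested members are protein-coding, so these shares of all genes are a low yardstick. A list with about 59.4% of its genes called is at the protein-coding background.

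**Figure D1:**
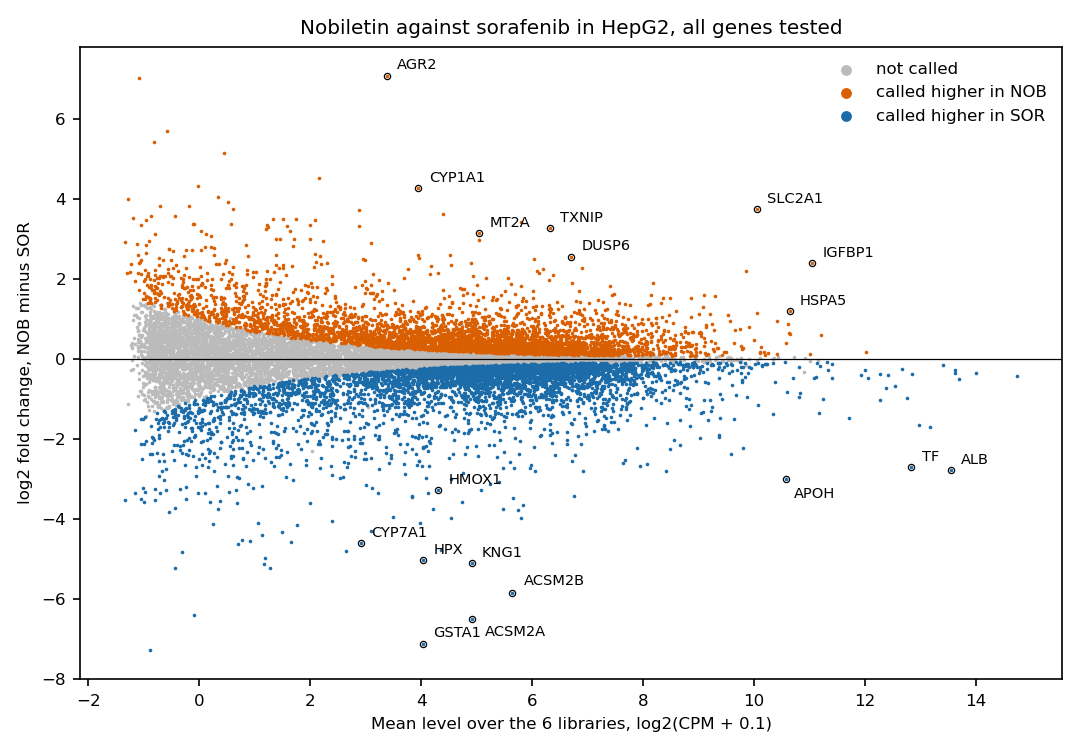
Log2 fold change, NOB minus SOR, of the 15818 genes tested (y axis) against their mean level over the 6 libraries as log2(CPM + 0.1) (x axis); orange points were called higher in NOB (4008), blue points higher in SOR (4300) and grey points were not called. The circled genes are those named in the text, from AGR2 at 7.09 to GSTA1 at -7.12, and the abundant plasma protein genes ALB and TF lie at the lower right.

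The plasma proteins that hepatocytes secrete were higher in SOR in 22 of 24 tested genes of the list, with a median log2 fold change of -1.42 against 0.01 over all genes. Albumin, the main protein of plasma (ALB, chr4:73397114-73421412), stood at 2999, 3076 and 3073 CPM in the NOB libraries and 20620.5, 20476 and 21414 CPM in the SOR libraries. Every SOR library was far above every NOB library (log2 fold change -2.77 ± 0.03 (SE), edgeR adjusted p = 6.8e-55). The Control level of 6448 ± 159 CPM lay between. The iron carrier transferrin (TF, chr3:133745956-133796640) had 1955, 1934 and 1932 CPM in the NOB libraries and 12560.5, 12450 and 12876 CPM in the SOR libraries, again with no overlap (log2 fold change -2.7 ± 0.03 (SE), edgeR adjusted p = 1.26e-54). Its Control level, 2504 ± 41.1 CPM, was much nearer to NOB.

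Other carriers and acute-phase proteins had the same direction. Hemopexin, which binds free heme (HPX, chr11:6431049-6442617), was barely detected in NOB, at 0.785, 0.467 and 1.55 CPM, and stood at 31.7, 32.5 and 30.9 CPM in SOR (log2 fold change -5.04 ± 0.17 (SE), edgeR adjusted p = 1.29e-27). The apolipoprotein H gene (APOH) had 338 ± 7.37 CPM in NOB and 2704 ± 130.2 in SOR (log2 fold change -3.0 ± 0.03 (SE), edgeR adjusted p = 4.44e-54). Haptoglobin, which binds free hemoglobin (HP), differed by -1.94 ± 0.05 on the log2 scale (edgeR adjusted p = 2.92e-38), vitronectin (VTN) by -2.79 ± 0.04 (adjusted p = 7.62e-51) and the fetal protein AFP, a marker of hepatocellular tumours, by -1.71 ± 0.03 (adjusted p = 1.66e-45). The exceptions were APOA2, the second main protein of high-density lipoprotein, and transthyretin. APOA2 was higher in NOB, at 2913, 2892 and 2753 CPM against 1946, 1749 and 1989 (log2 fold change 0.59 ± 0.04 (SE), edgeR adjusted p = 1.77e-15). Transthyretin, a carrier of thyroid hormone and retinol-binding protein (TTR), was not called, at 179.7 ± 0.962 and 185 ± 13.6 CPM; its log2 fold change of -0.04 ± 0.04 became 0.14, and was called higher in NOB, with library totals. Without SOR replicate 2 it was called higher in SOR (-0.10, adjusted p = 0.0221).

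As a share of all counts, the 24 secreted-protein genes and the 2 that were not tested took 4.51% ± 0.0198 in NOB, 10.0% ± 0.0929 in SOR and 6.74% ± 0.0911 in Control (SD, n = 3), and ALB alone took 0.324% ± 0.00421, 1.95% ± 0.0292 and 0.641% ± 0.00646. The NOB and SOR libraries did not overlap in either share. The exact two-sided permutation test gave p = 0.1 for each, which is the smallest p that 3 libraries against 3 can give.

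**Figure D2:**
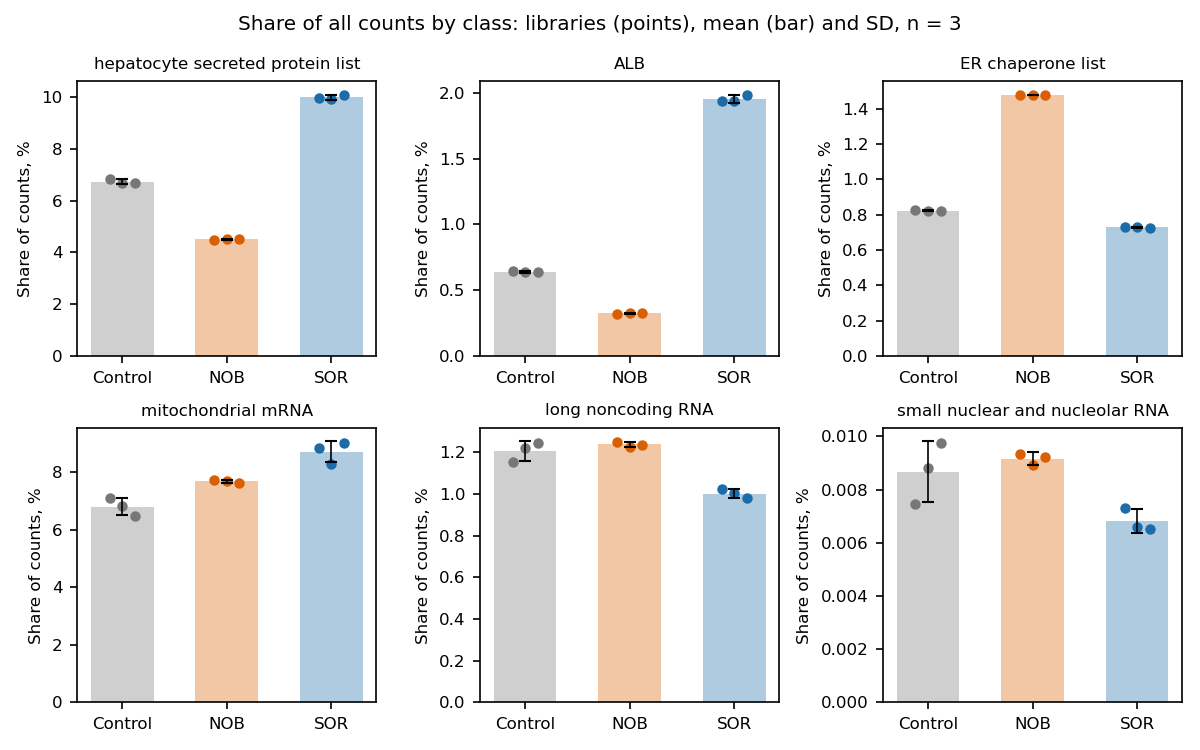
Percent of all counts taken by classes of RNA and gene lists in each library (points) of Control, NOB and SOR, with the group mean as a bar and the SD as a whisker (n = 3). The secreted-protein list lies at 4.51% in NOB and 10.0% in SOR, and the ER chaperone list at 1.48% and 0.727%, with Control at 0.822%.

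Clotting factors and their regulators followed, with 16 of 19 tested genes higher in SOR, 1 higher in NOB and a median of -0.84. Kininogen, the source of bradykinin and part of contact activation (KNG1, chr3:186717276-186744410), had 1.98, 1.63 and 1.39 CPM in the NOB libraries and 55.3, 58.9 and 60.2 CPM in the SOR libraries (log2 fold change -5.12 ± 0.11 (SE), edgeR adjusted p = 6.8e-41), with the lowest SOR library far above the highest NOB library. Antithrombin, which inactivates thrombin (SERPINC1), had 82.7 ± 5.1 CPM in NOB and 391 ± 12.1 in SOR (log2 fold change -2.24 ± 0.04 (SE), edgeR adjusted p = 8.36e-45). Plasminogen, the precursor of the fibrin-digesting enzyme (PLG), had 5.69 ± 0.374 and 26.7 ± 2.52 CPM (log2 fold change -2.23 ± 0.11 (SE), edgeR adjusted p = 9.93e-25). Factor XII (F12) had 6.2 ± 0.19 and 24.3 ± 1.73 CPM (log2 fold change -1.97 ± 0.11 (SE), edgeR adjusted p = 1.52e-22). The gene higher in NOB was TFPI, an inhibitor of the tissue factor pathway (0.25 ± 0.03, adjusted p = 8.02e-09).

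In the complement list, 14 of 20 tested genes were higher in SOR and 4 higher in NOB (median -0.62). The protease C1S, which starts the classical pathway, had 5.78 ± 1.1 CPM in NOB and 28.7 ± 2.19 in SOR (log2 fold change -2.3 ± 0.11 (SE), edgeR adjusted p = 6.72e-25). The central component C3 differed by -0.68 ± 0.03 (adjusted p = 8.16e-28). C5, from which the membrane attack complex starts, went the other way: it stood at 256, 273 and 277 CPM in NOB and 87.7, 84.2 and 90.8 CPM in SOR (log2 fold change 1.62 ± 0.04 (SE), edgeR adjusted p = 5.51e-38), with both below the Control level of 645 ± 22.2. The surface regulator CD55 was also higher in NOB (0.50 ± 0.07, adjusted p = 1.01e-07). C4A and C4B are near-identical neighbours whose reads the counting may divide between them, so their values are uncertain.

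Apolipoproteins and the genes of lipoprotein assembly were higher in SOR in 14 of 18 and higher in NOB in 2 (median -0.78). Apolipoprotein C-III, an inhibitor of lipoprotein lipase (APOC3), had 70.2, 64.6 and 65.1 CPM in NOB, 417, 404 and 452 CPM in SOR and 72 ± 4.54 CPM in Control (log2 fold change -2.67 ± 0.04 (SE), edgeR adjusted p = 7.39e-47). NOB and Control were thus close in level, and all 3 SOR libraries were far above them. Apolipoprotein A-I, the main protein of high-density lipoprotein (APOA1), had 1764 ± 25.2 CPM in NOB and 4896 ± 193 in SOR (log2 fold change -1.47 ± 0.03 (SE), edgeR adjusted p = 8.47e-42). Apolipoprotein M, which carries sphingosine 1-phosphate (APOM), was the larger of the opposite differences, with 425, 422 and 426 CPM in NOB and 136, 133 and 148 in SOR (log2 fold change 1.61 ± 0.04 (SE), edgeR adjusted p = 1.2e-39).

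**Figure D3:**
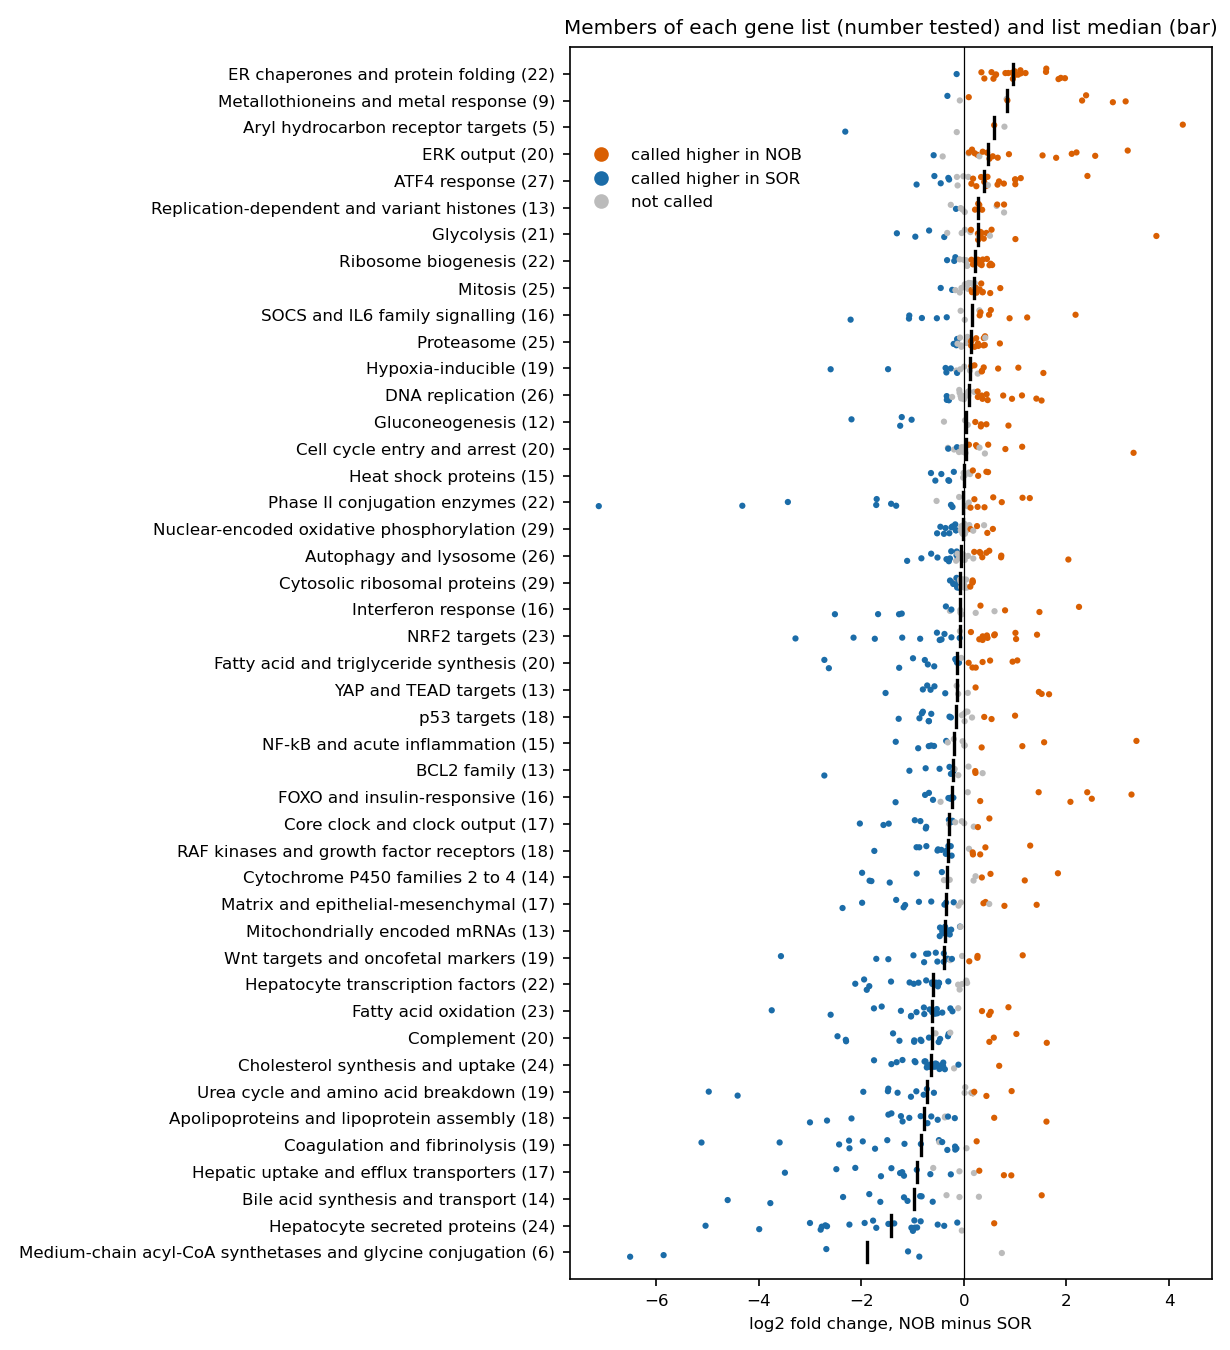
Log2 fold change, NOB minus SOR, of each tested member (points) of 45 gene lists, with the number tested in parentheses and the list median as a black bar; orange and blue points were called higher in NOB and in SOR, and grey points were not called. The ER chaperone list has its median at 0.97, and the liver-specific lists lie at the lower end, the secreted proteins at -1.42.

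Of the 15 protein-coding genes with the largest differences towards SOR, GSTA1, ACSM2A, ACSM2B, CYP3A43, RDH16, OTC, CYP7A1, ARG1 and GSTA2 encode enzymes of conjugation, fatty acid activation, oxidation, retinol, bile acid and nitrogen metabolism. The glutathione transferase GSTA1 (chr6:52791664-52803910) had 0.207, 0.467 and 0.0398 CPM in the NOB libraries and 31.8, 32.6 and 32.5 CPM in the SOR libraries (log2 fold change -7.12 ± 0.20 (SE), edgeR adjusted p = 5.62e-36), with Control at 1.54 ± 0.49 CPM. Its 3 NOB libraries were close to no expression, and each SOR library was far above them and above Control. Its near copy GSTA2 differed by -4.32 ± 0.34 (adjusted p = 2.86e-16), and reads shared between the pair make both values uncertain.

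The ACSM genes encode mitochondrial enzymes that couple medium-chain fatty acids and benzoate to coenzyme A, the step before glycine conjugation. Of the 6 tested genes in that list 5 were higher in SOR and none higher in NOB. ACSM2A (chr16:20451461-20487667) had 0.785, 0.886 and 0.318 CPM in the NOB libraries and 60.5, 56.5 and 62.2 CPM in the SOR libraries (log2 fold change -6.51 ± 0.14 (SE), edgeR adjusted p = 1.43e-41). ACSM2B (chr16:20536226-20576427) had 1.67 ± 0.426 and 96.9 ± 4.34 CPM (log2 fold change -5.86 ± 0.10 (SE), edgeR adjusted p = 4.12e-46). They are neighbours of very similar sequence, so their separate values are uncertain, though both differed in the same direction.

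Bile acid genes were higher in SOR in 10 of 14 and higher in NOB in 1 (median -0.98), or 2 without NOB replicate 3, SOR replicate 2 or with library totals. Cholesterol 7-alpha-hydroxylase, which limits the rate of bile acid synthesis (CYP7A1), had 0.33, 0.933 and 0.517 CPM in the NOB libraries and 15.1, 12.3 and 15.3 CPM in the SOR libraries (log2 fold change -4.61 ± 0.22 (SE), edgeR adjusted p = 1.49e-25). The bile acid receptor gene NR1H4 had 35.6 ± 2.75 and 128 ± 2.85 CPM (log2 fold change -1.85 ± 0.05 (SE), edgeR adjusted p = 2.13e-35). Every SOR library exceeded every NOB library for both genes. The opposite difference was that of NR0B2, a nuclear receptor that represses CYP7A1, at 98, 94.5 and 95.1 CPM in NOB and 34.6, 34 and 31.9 CPM in SOR (log2 fold change 1.52 ± 0.06 (SE), edgeR adjusted p = 1.49e-30).

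Among uptake and efflux transporters 11 of 17 were higher in SOR and 3 higher in NOB (median -0.92). The organic anion transporter SLC22A7 had 8.14 ± 0.506 CPM in NOB and 91.7 ± 2.45 in SOR (log2 fold change -3.49 ± 0.07 (SE), edgeR adjusted p = 5.44e-42). The canalicular export pump ABCC2 had 366 ± 5.99 and 844 ± 6.99 CPM (log2 fold change -1.2 ± 0.03 (SE), edgeR adjusted p = 5.75e-37). ABCB1, the drug efflux pump known as P-glycoprotein, was among the 3 higher in NOB: its libraries had 134, 135 and 136 CPM in NOB and 74.2, 68.9 and 70.1 CPM in SOR (log2 fold change 0.92 ± 0.05 (SE), edgeR adjusted p = 7.68e-25). The NOB level of ABCB1 was near that of Control (138 ± 1.67 CPM), and the SOR level below both.

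The drug-metabolizing cytochrome P450 list and the phase II list were mixed. Of 14 P450 genes of families 2 to 4, 6 were higher in SOR and 4 higher in NOB, and of 22 phase II enzymes 9 and 8. The phase II genes higher in NOB numbered 5 with all 12 libraries in the fit and 4 with limma on FPKM. The P450 genes higher in NOB numbered 2 without NOB replicate 3. The sulfotransferase of steroids and bile acids SULT2A1 had 18.1 ± 0.515 CPM in NOB and 196 ± 15.5 in SOR (log2 fold change -3.43 ± 0.06 (SE), edgeR adjusted p = 1.03e-46). The glucuronosyltransferase UGT2B7 had 11.6 ± 1.55 and 31 ± 1.18 CPM (log2 fold change -1.42 ± 0.09 (SE), edgeR adjusted p = 3.44e-19). Among the P450 genes called higher in NOB, the largest differences were in CYP2S1 (1.83 ± 0.31, adjusted p = 1.52e-06) and CYP4F11 (1.19 ± 0.11, adjusted p = 4.03e-14). The P450 genes of family 3 are close copies on one stretch of the chromosome, and CYP3A43, at 0.115 ± 0.0664 CPM in NOB and 4.49 ± 0.645 in SOR, is uncertain for that reason.

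Nitrogen metabolism was represented by 19 tested genes of the urea cycle and amino acid breakdown, 11 higher in SOR and 4 higher in NOB (median -0.72). Ornithine transcarbamylase (OTC) and arginase 1 (ARG1), both urea cycle enzymes, had 0.131 ± 0.0793 and 0.18 ± 0.079 CPM in NOB, near the floor, and 4.19 ± 0.404 and 3.98 ± 1.51 CPM in SOR. Their log2 fold changes were -4.98 ± 0.40 (adjusted p = 7.12e-16) and -4.41 ± 0.40 (adjusted p = 2.41e-14). Glutamate dehydrogenase (GLUD1) stood at 263, 269 and 276 CPM in NOB and 1034, 1032 and 1085 CPM in SOR (log2 fold change -1.96 ± 0.03 (SE), edgeR adjusted p = 6.04e-46). Control at 311 ± 9.55 CPM was close to NOB.

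The transcription factors that set hepatocyte identity were higher in SOR in 17 of 22, and none was higher in NOB (median -0.60); with library totals 3 were called higher in NOB. CEBPA, a factor of differentiated hepatocytes, had 31, 26.6 and 32.8 CPM in NOB and 113, 116 and 108 CPM in SOR (log2 fold change -1.89 ± 0.06 (SE), edgeR adjusted p = 5.78e-34), without overlap. HNF4A, a nuclear receptor at the centre of this network, had 308 ± 6.76 and 475 ± 7.13 CPM (log2 fold change -0.62 ± 0.03 (SE), edgeR adjusted p = 3.07e-23). RXRA, the partner of many nuclear receptors, had 85.1 ± 3.8 and 228 ± 9.42 CPM (log2 fold change -1.42 ± 0.04 (SE), edgeR adjusted p = 8.89e-35).

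The chaperones and folding enzymes of the ER went the other way as a group: 21 of 22 tested genes were higher in NOB and 1, XBP1, was higher in SOR (median 0.97). These proteins fold and quality-check secreted proteins. Their genes are known to be induced together when unfolded proteins accumulate, through factors that bind the ER stress element, a promoter sequence made of CCAAT and CCACG separated by 9 bases. The element was searched on both strands in the 250 bases before each start in RefSeq (GRCh38.p14). It was found in 7 of the 21 listed genes with a promoter there (33.3%) and in 22 of all 27305 promoters (0.0806%). The matches in 7 genes are shown with up to 20 bases on either side, because these letters are what those 7 promoters share. The other listed promoters had no match in this window. Capitals mark the CCAAT and CCACG ends, or ATTGG and CGTGG where the element lies on the other strand. Each run is written 5′ to 3′ along the strand of its gene.
HSPA5, chr9:125241371-125241429, minus strand: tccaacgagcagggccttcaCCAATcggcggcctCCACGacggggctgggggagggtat
HSP90B1, chr12:103930196-103930254, plus strand: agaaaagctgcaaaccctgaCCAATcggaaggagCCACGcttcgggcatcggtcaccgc
HSP90B1, chr12:103930301-103930359, plus strand: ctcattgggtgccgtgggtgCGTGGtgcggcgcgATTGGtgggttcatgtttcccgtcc
CALR, chr19:12938364-12938422, plus strand: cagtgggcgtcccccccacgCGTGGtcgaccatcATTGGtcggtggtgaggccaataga
CANX, chr5:179698758-179698816, plus strand: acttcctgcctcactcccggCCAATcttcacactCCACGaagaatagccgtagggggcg
CRELD2, chr22:49918534-49918592, plus strand: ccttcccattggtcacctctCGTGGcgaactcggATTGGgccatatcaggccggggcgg
ERO1B, chr1:236282163-236282208, minus strand: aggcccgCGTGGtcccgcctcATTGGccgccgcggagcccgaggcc
XBP1, chr22:28800583-28800641, minus strand: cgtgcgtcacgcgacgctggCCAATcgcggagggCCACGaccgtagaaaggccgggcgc

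HSPA5 encodes BiP, the main Hsp70 chaperone of the ER. It had 2215, 2223 and 2237 CPM in the NOB libraries and 977, 957 and 969 CPM in the SOR libraries (log2 fold change 1.2 ± 0.03 (SE), edgeR adjusted p = 2.65e-38). The lowest NOB library was far above the highest SOR library. Control, at 1165 ± 36.6 CPM, was nearer to SOR. HSP90B1, the Hsp90 chaperone of the ER, had 1937 ± 40.5 CPM in NOB and 1255 ± 38.5 in SOR (log2 fold change 0.63 ± 0.03 (SE), edgeR adjusted p = 6.86e-25). The calcium-binding lectin chaperones calreticulin and calnexin both differed: CALR by 0.95 ± 0.03 (edgeR adjusted p = 1.67e-32) and CANX by 0.40 ± 0.03 (adjusted p = 3.91e-17).

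CRELD2, a secreted-pathway protein induced by ER stress, had 42, 39.3 and 39.6 CPM in NOB and 14.6, 11.8 and 13.3 in SOR (log2 fold change 1.6 ± 0.09 (SE), edgeR adjusted p = 3.61e-23). ERO1B, an oxidase that feeds disulfide formation, differed by 0.62 ± 0.09 (adjusted p = 4.14e-08). XBP1, a transcription factor of the same stress response whose promoter also holds the element, was slightly higher in SOR, at 312, 307 and 314 CPM in NOB and 343, 345 and 342 CPM in SOR (log2 fold change -0.14 ± 0.03 (SE), edgeR adjusted p = 0.0003), but its log2 fold change was 0.04 with library totals. Its messenger RNA is spliced in the stress response, and gene counts do not separate the spliced from the unspliced form.

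The largest differences of the list were in genes without a match to the element in this window, which says only that its letters are not there. MANF, a secreted ER stress protein, had 127, 129.7 and 122 CPM in NOB and 34.9, 31.8 and 29.6 CPM in SOR (log2 fold change 1.97 ± 0.06 (SE), edgeR adjusted p = 5.27e-36). The co-chaperone DNAJB9 had 164, 167 and 163 and 43.2, 43.9 and 46.3 CPM (log2 fold change 1.89 ± 0.05 (SE), edgeR adjusted p = 2.78e-38). The chaperone HYOU1 had 827 ± 18.5 and 271 ± 7.55 CPM (log2 fold change 1.61 ± 0.03 (SE), edgeR adjusted p = 8e-42). All 3 stood without overlap, with Control between the groups, at 43.3 ± 0.722 CPM for MANF, 87.7 ± 2.87 CPM for DNAJB9 and 373 ± 7.53 CPM for HYOU1. The whole list took 1.48% ± 0.00247 of the counts in NOB, 0.727% ± 0.00299 in SOR and 0.822% ± 0.00319 in Control (SD, n = 3; exact two-sided permutation p = 0.1 for NOB against SOR).

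Of all 14 tested genes whose promoter window holds the element, 11 were called higher in NOB, 2 higher in SOR and 1 was not called. Besides the listed genes, those higher in NOB were FICD, ALG12, SERP1, EIF2A and TRIM5. FICD, an enzyme that modifies BiP, had 28.3, 24.2 and 26.3 CPM in NOB and 4.85, 5.23 and 3.55 CPM in SOR (log2 fold change 2.53 ± 0.12 (SE), edgeR adjusted p = 1.76e-25). SERP1, a protein of the ER translocation complex, had 328 ± 9.23 and 180.1 ± 6.89 CPM (log2 fold change 0.86 ± 0.04 (SE), edgeR adjusted p = 1.54e-27). ALG12 differed by 0.34 ± 0.10 (adjusted p = 0.00288), EIF2A by 0.11 ± 0.04 (adjusted p = 0.0131) and TRIM5 by 0.84 ± 0.12 (adjusted p = 7.41e-08). The ALG12 call was lost without SOR replicate 1 (0.22, adjusted p = 0.0839). The EIF2A call was lost without NOB replicate 1 (0.09), SOR replicate 1 (0.09) or SOR replicate 2 (0.09), with all 12 libraries in the fit (0.12) and with limma on FPKM (0.11). CRELD2 and ALG12 share one stretch of promoter, as do SERP1 and EIF2A, so these pairs are not independent matches. TMEM120A was higher in SOR (-0.80 ± 0.06, adjusted p = 7.83e-17), and ZNF17 was not called (-0.01 ± 0.18, adjusted p = 0.957). These genes were found through the element, outside the rule for named genes.

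**Figure D4:**
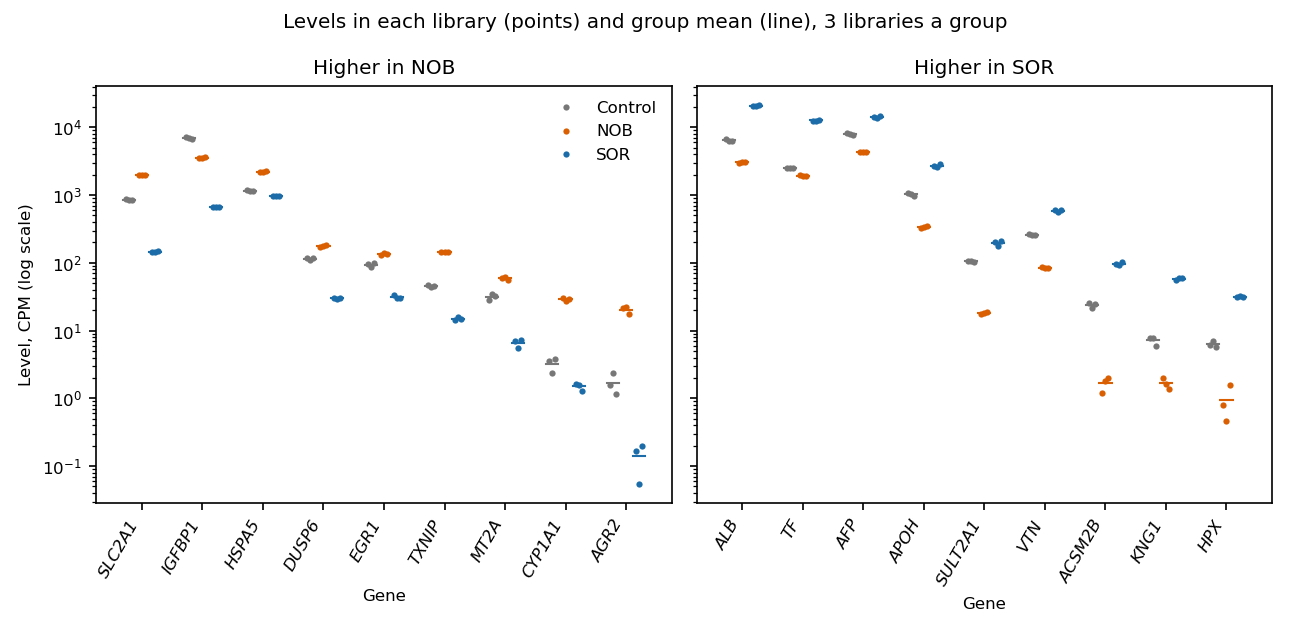
Level of selected genes in each library as CPM on a log axis (points), with the group mean as a line, for Control (grey), NOB (orange) and SOR (blue). HSPA5 and SLC2A1 are higher in every NOB library than in every SOR library, and ALB is lower.

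The ATF4 response, the other arm of stress signalling that raises amino acid synthesis and transport, was higher in NOB in 17 of 27 and higher in SOR in 5 (median 0.40). ALDH1L2, a mitochondrial folate enzyme, had 49.1, 52.3 and 47.5 CPM in NOB and 7.3, 9.63 and 11.3 in SOR (log2 fold change 2.41 ± 0.10 (SE), edgeR adjusted p = 1.31e-24). The cystine carrier SLC7A11 had 335 ± 13.6 and 167 ± 4.02 CPM (log2 fold change 1.0 ± 0.04 (SE), edgeR adjusted p = 2.25e-30). The stress hormone gene GDF15 had 364 ± 8.58 and 183 ± 7.92 CPM (log2 fold change 1.0 ± 0.04 (SE), edgeR adjusted p = 1.81e-30), both below the Control level of 515 ± 10.8 CPM. Against the majority, the stress protein gene NUPR1 (-0.92 ± 0.08, adjusted p = 5.61e-15) and the amino acid carrier SLC7A5 (-0.58 ± 0.03, adjusted p = 4.3e-22) were higher in SOR. DDIT3, which encodes the stress factor CHOP, was not called (-0.12 ± 0.07, adjusted p = 0.119), though without SOR replicate 1 it was (-0.18, adjusted p = 0.0483); it was chosen after its values were seen. Heat shock proteins of the cytosol and mitochondria were divided, 4 of 15 higher in NOB and 6 higher in SOR, and 9 and 3 with library totals.

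Genes that report ERK activity were higher in NOB in 16 of 20 and higher in SOR in 1 (median 0.47). DUSP6, a phosphatase that inactivates ERK and is itself induced by it (chr12:89347232-89353271), had 173, 176 and 182 CPM in the NOB libraries and 30.5, 29.5 and 29.8 CPM in the SOR libraries (log2 fold change 2.56 ± 0.05 (SE), edgeR adjusted p = 1.7e-43). The groups stood far apart, and Control, at 114 ± 4.09 CPM, lay between them. SPRY4, a feedback inhibitor of receptor signalling, had 111 ± 0.646 CPM in NOB and 24.4 ± 2.36 in SOR (log2 fold change 2.19 ± 0.06 (SE), edgeR adjusted p = 9.17e-37). The immediate early transcription factor EGR1 had 135 ± 3.83 and 31.4 ± 1.56 CPM (log2 fold change 2.1 ± 0.05 (SE), edgeR adjusted p = 3.22e-38).

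IER3, another immediate early gene, differed by 1.53 ± 0.06 (edgeR adjusted p = 1.79e-29) and ETV5, a transcription factor downstream of ERK, by 0.88 ± 0.05 (adjusted p = 2.77e-23). The gene against the majority was PHLDA1, at 76.4 ± 3.45 CPM in NOB and 115 ± 4.28 in SOR (log2 fold change -0.59 ± 0.05 (SE), edgeR adjusted p = 3.88e-16). AREG, which encodes the EGF receptor ligand amphiregulin and is in none of the lists, was among the 15 protein-coding genes with the largest differences towards NOB, at 13.5, 14.3 and 11.6 CPM in NOB and 1.08, 1.49 and 1.4 CPM in SOR (log2 fold change 3.33 ± 0.18 (SE), edgeR adjusted p = 1.1e-22).

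Among the kinases of the ERK cascade and growth factor receptors most differences were the opposite: of 18 tested, 12 were higher in SOR and 5 higher in NOB (median -0.32). The fibroblast growth factor receptor FGFR2 had 5.54, 5.27 and 5.29 CPM in NOB and 18.2, 18.1 and 17.8 CPM in SOR (log2 fold change -1.75 ± 0.12 (SE), edgeR adjusted p = 1.53e-18). The receptor ERBB2 had 196 ± 5.26 and 371 ± 2.7 CPM (log2 fold change -0.92 ± 0.04 (SE), edgeR adjusted p = 8.36e-30). The largest difference towards NOB was in PDGFRB, one of the receptors that sorafenib inhibits, at 9.17 ± 1.11 CPM in NOB and 3.76 ± 0.346 in SOR (log2 fold change 1.29 ± 0.16 (SE), edgeR adjusted p = 1.59e-09); it lay at 23.5 ± 0.749 CPM in Control and was chosen after its values were seen.

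Insulin and FOXO-responsive genes divided 6 to 8 among 16, with 4 higher in SOR under library totals. The largest differences were towards NOB. IGFBP1, a secreted binding protein of insulin-like growth factors, had 3488, 3573 and 3598 CPM in NOB and 671, 677 and 664 CPM in SOR (log2 fold change 2.4 ± 0.03 (SE), edgeR adjusted p = 1.18e-51). Both groups were below Control, at 6904 ± 274 CPM. TXNIP, an inhibitor of glucose uptake that glucose itself induces, had 144, 146 and 144 and 14.6, 15.9 and 14.6 CPM (log2 fold change 3.27 ± 0.06 (SE), edgeR adjusted p = 3.08e-45). Its relative ARRDC4 had 12.9 ± 1.08 and 2.3 ± 0.535 CPM (log2 fold change 2.49 ± 0.17 (SE), edgeR adjusted p = 4.56e-19). IRS1, an adaptor of the insulin receptor, was higher in SOR, at 52.7 ± 1.89 against 133 ± 4.77 CPM (log2 fold change -1.33 ± 0.05 (SE), edgeR adjusted p = 8.33e-31).

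Glucose handling showed one of the largest differences of an abundant gene. SLC2A1, the glucose transporter GLUT1 (chr1:42925375-42959176), had 2009, 1959 and 1956 CPM in the NOB libraries and 143, 147 and 150 CPM in the SOR libraries (log2 fold change 3.75 ± 0.03 (SE), edgeR adjusted p = 2.94e-58). Its Control level, 856 ± 15.3 CPM, lay between the groups and apart from both. Of the 21 tested genes of glycolysis 11 were higher in NOB and 4 higher in SOR (median 0.28). Hexokinase 2 (HK2), the first step, had 281 ± 3.51 and 140 ± 2.3 CPM (log2 fold change 1.0 ± 0.04 (SE), edgeR adjusted p = 1.43e-30). The pyruvate kinase PKM differed by 0.54 ± 0.04 (adjusted p = 1.2e-19). The 2 liver-type members SLC2A2 (-0.68 ± 0.05, adjusted p = 7.36e-17) and PKLR (-1.31 ± 0.12, adjusted p = 1.17e-08) were higher in SOR. PKLR was chosen after its values were seen.

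Gluconeogenesis divided 5 to 4 among 12 genes. The enzymes PCK1 (-1.21 ± 0.08, edgeR adjusted p = 9.51e-19) and G6PC (-1.02 ± 0.07, adjusted p = 3.87e-19), which commit carbon to glucose output, were higher in SOR, as was their regulator CREB3L3, at 10, 10.1 and 10.2 CPM in NOB and 45.7, 46.4 and 46.6 in SOR (log2 fold change -2.19 ± 0.08 (SE), edgeR adjusted p = 9.35e-30). The coactivator PPARGC1A was higher in NOB (0.87 ± 0.04, adjusted p = 9.05e-25).

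Cholesterol synthesis and uptake was higher in SOR in 22 of 24 (median -0.63). The synthase HMGCS1 had 91.6 ± 0.424 CPM in NOB and 210.1 ± 5.56 in SOR (log2 fold change -1.2 ± 0.04 (SE), edgeR adjusted p = 3.14e-32). The thiolase ACAT2, which acts at the first step of the pathway, had 42.6, 40.9 and 44 CPM in NOB and 112, 113 and 115 CPM in SOR (log2 fold change -1.41 ± 0.05 (SE), edgeR adjusted p = 6.08e-31). Lanosterol synthase (LSS), which closes the sterol rings, had 81.7, 79.5 and 76.8 CPM in NOB and 199, 203 and 189 CPM in SOR (log2 fold change -1.31 ± 0.04 (SE), edgeR adjusted p = 5.39e-33). In both genes the lowest SOR library was above the highest NOB library.

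Fatty acid oxidation was higher in SOR in 18 of 23 and higher in NOB in 4 (median -0.62). The mitochondrial thiolase ACAA2, of the last step of each oxidation cycle, had 54.5, 58.3 and 56.8 CPM in the NOB libraries and 119.9, 106 and 120.3 CPM in the SOR libraries (log2 fold change -1.03 ± 0.05 (SE), edgeR adjusted p = 1.3e-24). The lipid droplet protein PLIN2 had 70.2 ± 2.99 and 237 ± 6.09 CPM (log2 fold change -1.75 ± 0.04 (SE), edgeR adjusted p = 4.71e-39). ANGPTL4, a lipase inhibitor, had 2.96 ± 0.64 and 18.1 ± 1.1 CPM (log2 fold change -2.6 ± 0.14 (SE), edgeR adjusted p = 1.27e-22). The nuclear receptor PPARA, which acts on these genes, had 132 ± 1.56 and 202 ± 5.58 CPM (log2 fold change -0.62 ± 0.04 (SE), edgeR adjusted p = 2.83e-20). Against them, CPT1A, which admits fatty acids to mitochondria, was higher in NOB (0.52 ± 0.07, adjusted p = 1.36e-09).

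In fatty acid and triglyceride synthesis 12 of 20 were higher in SOR and 7 higher in NOB; 7 were higher in SOR with library totals or with all 12 libraries in the fit. The largest differences towards SOR were at the ends of triglyceride assembly: GPAM, which starts it, had 77, 72.5 and 75.1 CPM in NOB and 457, 470.1 and 467 CPM in SOR (log2 fold change -2.63 ± 0.04 (SE), edgeR adjusted p = 2.9e-49). DGAT2, which completes it, had 19.1, 16 and 14.2 and 108, 107 and 111 CPM (log2 fold change -2.72 ± 0.07 (SE), edgeR adjusted p = 3.68e-36). In SOR both stood above Control, which was at 218 ± 11.3 and 41.4 ± 2.21 CPM. ACSL3 (1.04 ± 0.03, edgeR adjusted p = 4.1e-33) and LPIN1 (0.95 ± 0.08, adjusted p = 5.86e-14), a fatty acid activating enzyme and a phosphatidate phosphatase, were higher in NOB.

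The aryl hydrocarbon receptor, a sensor of planar aromatic compounds, has CYP1A1 as its best-known target. CYP1A1 (chr15:74719542-74725610) had 30.2, 27.7 and 29.5 CPM in the NOB libraries and 1.62, 1.6 and 1.3 CPM in the SOR libraries (log2 fold change 4.27 ± 0.14 (SE), edgeR adjusted p = 2.77e-33), so every NOB library was far above every SOR library and above Control, at 3.21 ± 0.771 CPM. Of the 5 tested genes of that list 2 were higher in NOB, the other being NQO1 (0.59 ± 0.04, adjusted p = 1.79e-19), and 1, ALDH3A1, was higher in SOR at a low level (0.202 ± 0.108 and 1.02 ± 0.355 CPM; log2 fold change -2.31 ± 0.58 (SE), edgeR adjusted p = 0.000567); its level was below the filter of limma on FPKM, which did not test it.

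Targets of NRF2, the factor of the antioxidant response, divided evenly, 11 higher in NOB and 11 higher in SOR among 23. Heme oxygenase (HMOX1) had 3.92, 3.87 and 3.18 CPM in NOB and 34.7, 35.9 and 36.3 CPM in SOR (log2 fold change -3.29 ± 0.11 (SE), edgeR adjusted p = 1.98e-32), with Control at 28.2 ± 3.75 CPM close to SOR. AKR1C1 was higher in SOR (-2.15 ± 0.04, adjusted p = 4.12e-46), but it and AKR1C2 are near copies and their values are uncertain.

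Metallothioneins are small proteins that bind zinc and copper. The metal response list holds their genes and others of metal handling. Of its 9 tested genes 6 were higher in NOB and 1 higher in SOR. The median of the list was 0.85, and 1.69 without SOR replicate 1. MT2A had 60.4, 60.9 and 56.2 CPM in the NOB libraries and 7.05, 5.61 and 7.15 CPM in the SOR libraries (log2 fold change 3.15 ± 0.09 (SE), edgeR adjusted p = 8.79e-36). The MT1 genes are near copies of each other, so MT1E (2.9 ± 0.17, adjusted p = 3.15e-21) and MT1G (2.3 ± 0.22, adjusted p = 3.6e-13) are uncertain as single genes. Both were at low levels, with 14.9 ± 1.13 and 6.77 ± 1.34 CPM in NOB and 1.97 ± 0.77 and 1.36 ± 0.197 CPM in SOR. The zinc exporter SLC30A1 was the gene higher in SOR (-0.32 ± 0.05, adjusted p = 2.7e-08). In the cells given both compounds MT2A stood at 564 ± 24.8 CPM, above both groups.

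Cell cycle genes differed less. In the mitosis list 11 of 25 were higher in NOB and 2 higher in SOR (median 0.19), and in the DNA replication list 11 of 26 and 3 (median 0.09). With library totals these counts were 18 and 1, and 17 and 0, and 1 mitosis gene was higher in SOR without NOB replicate 1. The proliferation marker MKI67 had 86.7, 85 and 88.4 CPM in NOB and 66.5, 67.5 and 68.5 in SOR (log2 fold change 0.36 ± 0.05 (SE), edgeR adjusted p = 7.94e-09). Larger differences were in RRM2, a subunit of the enzyme that makes deoxynucleotides, with 31.1, 31.6 and 31.9 and 11.6, 9.9 and 11.5 CPM (log2 fold change 1.51 ± 0.09 (SE), edgeR adjusted p = 8.73e-21). CDC6, which licenses replication origins, had 34 ± 2.12 and 12.8 ± 0.502 CPM (log2 fold change 1.41 ± 0.09 (SE), edgeR adjusted p = 2.6e-20). Both groups were above Control for these genes, at 6.25 ± 0.622 and 6.11 ± 1.08 CPM. The kinase AURKA was higher in SOR (-0.45 ± 0.06, adjusted p = 6.54e-09) and its relative AURKB in NOB (0.71 ± 0.10, adjusted p = 3.49e-08).

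Among cell cycle entry and arrest genes 7 of 20 were higher in NOB and 2 higher in SOR. These counts were 12 and 0 with library totals, and 4 were higher in SOR without NOB replicate 2 or SOR replicate 1. The inhibitor CDKN2B was low and had 3.47, 4.15 and 4.58 CPM in NOB and 0.249, 0.715 and 0.30 in SOR (log2 fold change 3.31 ± 0.34 (SE), edgeR adjusted p = 1.71e-12). Of 18 targets of p53, 9 were higher in SOR and 3 higher in NOB; with library totals 8 were higher in NOB. Among regulators of apoptosis related to BCL2, 7 of 13 were higher in SOR (4 with library totals) and 2 higher in NOB (1 without NOB replicate 1 or 3, or SOR replicate 1 or 2), and the largest difference was in BMF, a promoter of apoptosis, with 12.7, 10.6 and 11.5 CPM in NOB and 76.2, 77 and 77 CPM in SOR (log2 fold change -2.72 ± 0.07 (SE), edgeR adjusted p = 6.29e-37); Control, at 63.6 ± 2.69 CPM, was near SOR.

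The messenger RNAs of the mitochondrial genome were higher in SOR in 11 of 13 and none was higher in NOB (median -0.37); with library totals 1 was called higher in NOB. MT-ND1, a subunit of complex I, had 3586, 3537 and 3572 CPM in NOB and 4993, 4772 and 5069 CPM in SOR (log2 fold change -0.47 ± 0.03 (SE), edgeR adjusted p = 2.19e-20). As a share of counts these genes took 7.69% ± 0.0479 in NOB and 8.72% ± 0.369 in SOR (SD, n = 3; exact two-sided permutation p = 0.1), and the spread was wider in SOR, where the lowest library had 8.30% and the highest 9.0%. Nuclear genes of oxidative phosphorylation and cytosolic ribosomal proteins gave 4 and 10 of 29, and 4 and 12 of 29, higher in NOB and in SOR. With library totals those counts became 16 and 4, and 18 and 1, so no direction holds for either list. Ribosome biogenesis had 13 of 22 higher in NOB and 3 higher in SOR, and the proteasome 13 of 25 and 4. The SOR counts fell to 1 and 0 with library totals, and that of the proteasome to 2 without NOB replicate 3 or SOR replicate 3.

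Outside metabolism, several regulatory lists leaned towards SOR. Of 17 clock genes 10 were higher in SOR and 2 higher in NOB (median -0.29), or 4 with library totals. The clock output factor TEF had 9.4 ± 0.926 and 38.4 ± 1.93 CPM (log2 fold change -2.03 ± 0.09 (SE), edgeR adjusted p = 2.44e-26). PER3, a repressor of the clock, had 3.22 ± 0.931 and 9.64 ± 0.618 CPM (log2 fold change -1.57 ± 0.18 (SE), edgeR adjusted p = 4.32e-11). NR1D1 was not called (-0.17 ± 0.11, adjusted p = 0.189; 0.01 with library totals).

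Targets of Wnt signalling and oncofetal markers were higher in SOR in 13 of 19 and higher in NOB in 4 (median -0.40). DKK1, a secreted Wnt inhibitor, had 4.92, 3.69 and 3.66 CPM in NOB and 49, 48.9 and 48 CPM in SOR (log2 fold change -3.57 ± 0.10 (SE), edgeR adjusted p = 1.34e-35). NOTUM, an enzyme that also inactivates Wnt, was higher in NOB (1.15 ± 0.03, adjusted p = 2.32e-36). In the matrix and adhesion list 10 of 17 were higher in SOR and 4 higher in NOB. E-cadherin (CDH1) had 7.74 ± 1.12 and 39.7 ± 3.48 CPM (log2 fold change -2.37 ± 0.10 (SE), edgeR adjusted p = 5.78e-28). The collagen COL18A1 had 211 ± 6.45 and 836 ± 45.8 CPM (log2 fold change -1.99 ± 0.04 (SE), edgeR adjusted p = 1.43e-44). The integrin ITGA2 was higher in NOB (1.42 ± 0.05, adjusted p = 9.6e-30). A list of YAP and TEAD targets that also holds the factors themselves divided 4 to 6 among 13, and YAP1, WWTR1 and TEAD1 were 3 of those higher in SOR. Of the other members, CTGF (1.52 ± 0.03, adjusted p = 4.93e-40) and CYR61 (1.46 ± 0.14, adjusted p = 1.22e-13) were higher in NOB. AJUBA was higher in SOR (-1.53 ± 0.03, adjusted p = 9.11e-41). Differences of at least 2-fold were called in 3 genes of the list towards NOB and 1 towards SOR.

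Inflammatory and cytokine lists had no common direction. The IL6 family list divided 7 to 6 among 16, NF-kB targets 4 to 6 among 15 and interferon-responsive genes 4 to 6 among 16. SOCS3, a feedback inhibitor of cytokine receptors, had 2.19 ± 0.77 and 0.486 ± 0.18 CPM (log2 fold change 2.18 ± 0.40 (SE), edgeR adjusted p = 6.38e-06). The oncostatin M receptor OSMR had 92.7 ± 1.55 and 39.3 ± 1.29 CPM (log2 fold change 1.23 ± 0.05 (SE), edgeR adjusted p = 4.79e-27). STAT5A was higher in SOR, at 5.85 ± 0.323 and 27.1 ± 0.973 CPM (log2 fold change -2.21 ± 0.11 (SE), edgeR adjusted p = 3.99e-25). The adhesion molecule ICAM1 was higher in NOB (1.14 ± 0.05, adjusted p = 7.13e-26). IFITM2, an antiviral membrane protein, was higher in NOB (2.24 ± 0.13, adjusted p = 6.74e-22), and IFIT1, an interferon-induced RNA sensor, higher in SOR (-2.52 ± 0.16, adjusted p = 7.48e-20).

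Hypoxia-inducible genes divided 8 to 6 among 19, and autophagy and lysosome genes 9 to 10 among 26, with 5 of the latter higher in SOR under library totals. LOX, a collagen crosslinking enzyme, was higher in NOB (1.55 ± 0.08, edgeR adjusted p = 4.49e-22) and NDRG1 higher in SOR (-1.48 ± 0.04, adjusted p = 5.22e-35). WIPI1, a protein of early autophagosomes, had 75.8, 76.4 and 76.8 CPM in NOB and 19.8, 17.9 and 18 CPM in SOR (log2 fold change 2.04 ± 0.07 (SE), edgeR adjusted p = 5.36e-33). Histone genes were higher in NOB in 6 of 13 and higher in SOR in 1 (median 0.28), or 2 without NOB replicate 2.

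Single genes outside these lists made up most of the largest differences towards NOB. AGR2, a protein disulfide isomerase of the ER in mucus-secreting cells (chr7:16791811-16833433), had 21.5, 22 and 17.7 CPM in the NOB libraries and 0.166, 0.055 and 0.20 CPM in the SOR libraries (log2 fold change 7.09 ± 0.24 (SE), edgeR adjusted p = 3.81e-32). It was close to the floor in SOR and low in Control, at 1.71 ± 0.624 CPM. The adhesion protein PCDH1 had 8.35 ± 1.14 and 0.368 ± 0.205 CPM (log2 fold change 4.53 ± 0.27 (SE), edgeR adjusted p = 6.55e-21). HID1, a Golgi protein, had 38.6 ± 0.707 and 3.04 ± 0.708 CPM (log2 fold change 3.64 ± 0.12 (SE), edgeR adjusted p = 2.33e-33). CEMIP, which degrades hyaluronan, had 101 ± 1.42 and 9.38 ± 0.948 CPM (log2 fold change 3.43 ± 0.07 (SE), edgeR adjusted p = 3.28e-42). Towards SOR, the signalling protein VAV3 had 1.44 ± 0.196 and 39.5 ± 3.09 CPM (log2 fold change -4.77 ± 0.13 (SE), edgeR adjusted p = 8.7e-37). CORIN, a protease that activates natriuretic peptides, had 0.411 ± 0.24 and 11.9 ± 2.02 CPM (log2 fold change -4.79 ± 0.25 (SE), edgeR adjusted p = 1.24e-23).

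The noncoding genes with the largest differences included the long noncoding RNA LUCAT1, higher in NOB with 4.75, 4.85 and 3.78 CPM against 0.373, 0.825 and 0.50 (log2 fold change 3.0 ± 0.30 (SE), edgeR adjusted p = 1.62e-12). LINC02532 was higher in SOR, with 0.413, 0.187 and 0.119 CPM against 6.43, 4.07 and 7.1 (log2 fold change -4.58 ± 0.34 (SE), edgeR adjusted p = 2.9e-17). Of 718 tested lincRNA genes 124 were higher in NOB and 134 higher in SOR, and of 1028 antisense genes 150 and 120. The strand setting of the counting is not given in the sources used here, so reads of an antisense gene cannot be told apart from those of its partner.

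A few genes with at least 30 counts in one group had counts in all 3 of its libraries and none in the other group. There were 4 such genes in NOB, all noncoding, and 4 in SOR, of which 3 are protein-coding. LINC01844 had 13, 26 and 12 counts in NOB and 0 in SOR, at least 17.0-fold higher in NOB against a floor of 3 counts over the group. ZG16, a secretory granule protein of the gut, had 18, 21 and 15 counts in SOR and 0 in NOB, at least 18.0-fold higher in SOR. The sodium channel gene SCN3A and the cytokine gene IL27, with 36 and 31 counts in SOR, were at least 12-fold and 10.4-fold higher. The folds in this paragraph are scaled by library totals, not by TMM. The TMM factors were larger in NOB, so TMM would give a smaller bound for LINC01844 and larger bounds for the genes present in SOR. These are low counts, and the floor covers counting error only.

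For many genes the 2 compounds left levels close together. With TMM scaling, the 95% interval of the difference excluded levels more than 25% higher in either group for 3539 genes (22.4% of those tested). Of these, 1017 were nevertheless called. The interval lay within 1.5-fold for 7462 genes (47.2%). It does not carry the choice of scaling, and these counts were not made with other scalings. The intervals that reached least far from 0 included that of the ribosome-associated protein RACK1 (1303 ± 11.1 and 1297 ± 33 CPM, log2 difference 0.01 ± 0.03). GAPDH was not called (0.02 ± 0.03, edgeR adjusted p = 0.655), and its sign was negative, at -0.01, without SOR replicate 2. With library totals RACK1 (0.19) and GAPDH (0.20) were called higher in NOB. ACTB was slightly higher in SOR (-0.12 ± 0.03, adjusted p = 0.000944) and reached 0.06 with library totals.

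The Control libraries place these differences, though they took no part in the main fit. Of the 800 genes higher in NOB by at least 2-fold, the Control mean lay between the NOB and SOR means in 544 (68.0%), above both in 198 and below both in 58. Of the 1014 genes higher in SOR by at least 2-fold, it lay between in 723 (71.3%), above both in 127 and below both in 164. In ALB, DUSP6, SLC2A1 and DNAJB9 it lay between, and C5, IGFBP1 and GDF15 had both groups below Control. The combined treatment also differed in its place. On the scale of log2(CPM + 0.5) it was nearer to NOB than to SOR in 752 of the 1014 genes higher in SOR (74.2%). Of the 800 genes higher in NOB it was nearer to NOB in 386 (48.2%). Being nearer includes levels beyond NOB: it lay below both groups in 415 of the 1014 genes, above both in 101 and between in 498. For the 800 genes these counts were 216, 189 and 395. With both compounds CYP7A1 had no count in any library, and GSTA1 stood at 0.471 ± 0.216 CPM, near its level in NOB. TF, at 3037 ± 256 CPM with both compounds, was also nearer to NOB. DUSP6, at 35.6 ± 1.74 CPM, and IGFBP1, at 1246 ± 105 CPM, were nearer to SOR. The ERK output genes named above as higher in NOB were divided. EGR1 (118 ± 11.7 CPM), SPRY4 (76.5 ± 2.85 CPM) and IER3 (72.7 ± 3.04 CPM) were nearer to NOB. ETV5, at 82.7 ± 4.17 CPM, was nearer to SOR, as DUSP6 was. SLC2A1, at 656 ± 25 CPM, and ALB, at 8512 ± 1118 CPM, lay between the groups and apart from both.

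Other short promoter motifs were searched in the same 250-base windows, on both strands, for the lists they are known for. TTTGAA, the core of the cell cycle homology region, was in 12 of 20 mitosis promoters (60%) and 13.6% of all promoters. The CCAAT box was in 18 of 20 (90%) and 33.0%. TNGCGTG, the xenobiotic response element, was in 1 of 4 aryl hydrocarbon receptor targets and 4.53% of all promoters. The metal response element (TGC, then C, C and G, each after 1 further base) was in 3 of the 4 promoters of the metal response list (75%) and 19.8% of all. The sterol response element (TCAC and CCAC with 1 base between) was in 1 of 17 cholesterol promoters (5.88%) and 0.875% of all. A match describes the letters only.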

How the data were processed

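RNA was measured in 12 HepG2 libraries, and the 6 of NOB and SOR were compared. Per the labels' protocols, TRIzol was used for isolation, and the library step is named only as poly(A) capture or removal of rRNA. Per the submitters' processing notes, HISAT2 2.0.5 and featureCounts 1.5.0-p3 were used with GRCh38. How strand and multiply mapped reads were treated, and whether reads were filtered, is not given in the sources here. The deposited table of raw counts lists 58735 genes, of which 30978 had a count in the 6 libraries. The deposited FPKM table was used only for alternatives.

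The count analysis used edgeR 4.0.16 in R 4.3.3: filterByExpr by group left 15818 genes, scaling was by TMM, and the robust quasi-likelihood fit of the 2 group means had 4 residual degrees of freedom and a common biological coefficient of variation of 5.37%. Benjamini-Hochberg adjustment covered all genes tested, with an adjusted p under 0.05 called. Levels are CPM scaled by TMM, with the factors of the main fit for the NOB and SOR libraries. Factors of the Control and SOR+NOB libraries were taken against the same reference library. Exact two-sided permutation tests over libraries compared shares of counts. Promoter windows came from RefSeq. Python 3.11.15, SciPy 1.17.1 and matplotlib 3.10.9 were used for descriptions and figures.

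Groups were taken from the sample labels. The comparison, the gene lists and the tests were chosen with earlier results of these data known. Genes were named by rule: the 15 largest differences each way in called protein-coding genes that averaged 2 CPM or more and had no overlap of the groups, the 4 largest each way in other biotypes, up to 5 called members of a list with the smallest p, up to 2 called members against the majority, and a panel. Some genes that the rule names, and 1 of the motifs searched, are not reported here. Genes named beyond the rule as single examples were chosen after their values were seen. The alternatives were DESeq2 1.42.0, other scalings, no filter, all 12 libraries in the fit, a replicate block, protein-coding genes only, limma 3.58.1 on log2(FPKM + 1) and log2(FPKM + 0.1), and leaving out each library.

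On simulated counts for this comparison (15532 genes), the share of changed genes called was 56% at 1.25-fold, 72.3% at 1.5-fold, 92% at 2-fold and 100% at 4-fold, and 9 of 15337 unchanged genes were called. The simulation changed far fewer genes than differed in the data. No sample was left out. The 95% intervals carry the spread between libraries, and floors cover counting error only.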

Additional observations from a re-analysis of the deposited data

How the results depend on the processing

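The number of genes called was 8308 with edgeR and TMM, and lay between 6843 (limma on FPKM with a pseudocount of 0.1) and 9033 (library totals) over the alternatives. Leaving out 1 library gave 7682 to 8008 calls, DESeq2 7761 and all 12 libraries in the fit 6930. Of the genes called with TMM, 355 had the opposite sign of fold change with library totals, and none had it under the other alternatives that tested them. Library totals gave 6321 genes higher in NOB and 2712 higher in SOR, against 4008 and 4300. The median log2 fold change of all genes was 0.186 with library totals and 0.0056 with TMM, whose factors were 1.06 to 1.07 in NOB and 0.930 to 0.948 in SOR. With library totals the log2 fold changes of ACTB (0.0642), DDIT3 (0.0575), NR1D1 (0.0108), TTR (0.14), XBP1 (0.0382) and ZNF17 (0.165, and 0.0238 with upper quartile scaling) were positive. Leaving out 1 library gave ranges that crossed 0 for genes that were not called: GAPDH -0.0129 to 0.0347, RACK1 -0.0189 to 0.0136 and ZNF17 -0.188 to 0.105. Calls of at least 2-fold numbered 729 with limma on FPKM and a pseudocount of 1, against 1814, and the pseudocount lowers the fold of low genes by construction. The 95% interval lay within 1.5-fold for 7462 genes, against 3539 for the narrower bound.

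Same-numbered NOB and SOR libraries showed no shared deviation: their deviations from the group means correlated at 0.0171, -0.00310 and 0.00894 across genes. The labels used here do not say whether libraries of one number were made together, and these correlations cannot show it. With the replicate number as a block, 8265 genes were called. Depth limits the genes with low counts, and the genes not called are not shown to be alike.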

Other observations

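Some genes outside the lists and the naming rule, chosen after their values were seen, had large differences at substantial levels. On the side of NOB several serve the secretory pathway. SEC24D, a coat protein of ER exit vesicles, had 195, 199 and 198 CPM in NOB and 38.5, 45.3 and 39.2 CPM in SOR (log2 fold change 2.27 ± 0.05 (SE), edgeR adjusted p = 4.27e-41). The ER retrieval receptor KDELR3 had 39.1 ± 1.69 and 6.41 ± 0.571 CPM (log2 fold change 2.6 ± 0.10 (SE), edgeR adjusted p = 4.47e-30). The prolyl isomerase of the ER FKBP14 had 114 ± 6.12 and 25.5 ± 1.14 CPM (log2 fold change 2.16 ± 0.06 (SE), edgeR adjusted p = 5.75e-37). The translocon subunit SSR3 had 485 ± 5.31 and 170 ± 4.05 CPM (log2 fold change 1.51 ± 0.04 (SE), edgeR adjusted p = 8.93e-40). In all 4 genes Control was nearer to SOR than to NOB, with SEC24D at 58.3 ± 0.817 CPM and SSR3 at 225 ± 0.161 CPM.

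On the side of SOR were further liver genes. AGXT, a peroxisomal enzyme that removes glyoxylate, had 6.49, 6.81 and 6.53 CPM in NOB and 98, 111 and 106 CPM in SOR (log2 fold change -3.99 ± 0.07 (SE), edgeR adjusted p = 2.01e-44). The carboxylesterase CES1, which cleaves ester drugs, had 123 ± 4.35 and 588 ± 13.1 CPM (log2 fold change -2.26 ± 0.04 (SE), edgeR adjusted p = 4.51e-47). KLB, a co-receptor of endocrine fibroblast growth factors, had 60.7 ± 6.23 and 348 ± 18.5 CPM (log2 fold change -2.52 ± 0.06 (SE), edgeR adjusted p = 7.69e-18). The thyroid hormone deiodinase DIO1 had 7.66 ± 1.05 and 67.6 ± 5.0 CPM (log2 fold change -3.14 ± 0.09 (SE), edgeR adjusted p = 2.45e-36). The actin-severing protein GSN had 252, 249 and 249 CPM in NOB and 1283, 1326 and 1261 CPM in SOR (log2 fold change -2.37 ± 0.03 (SE), edgeR adjusted p = 5.15e-50). No NOB library overlapped a SOR library in these 5 genes, and Control stood close to NOB for GSN, at 306 ± 0.937 CPM, and for CES1, at 107 ± 1.05 CPM.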
